A study of Mus musculus with 12 samples.

Results

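The genes described here are 56 listed genes of mitosis and of the G2/M transition, the step at which a cell leaves the gap phase after DNA replication and divides. They were matched by symbol to a table of read counts for 49671 Ensembl genes, and all 56 were found. The list holds the proliferation antigen Mki67 and the topoisomerase Top2a, 10 cyclins and mitotic kinases, 9 kinetochore, centromere and checkpoint genes, 3 genes of the chromosomal passenger complex, 11 kinesin motors, 9 other spindle genes, 6 condensin and chromosome scaffold genes, 3 cytokinesis genes, and 3 genes of the anaphase promoting complex and mitotic exit. RNA came from formalin-fixed, paraffin-embedded mouse brain in 12 libraries. The study set out to determine the glioma subtype of tumours with mutant and wild-type IDH1, the gene of isocitrate dehydrogenase 1.

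There were 4 groups of 3 libraries. The IDH1_R132H tumours carry the mutant enzyme that is common in human diffuse glioma, the IDH1WT tumours carry the wild-type enzyme, and the PDGFA tumours are named for a growth factor, the A chain of platelet-derived growth factor, that binds the receptor PDGFRA. The fourth group is normal brain. The labels give the same base genotype for all 4 groups, N::TVA with homozygous lox alleles that include Cdkn2a and Atrx, so the normal brains are listed with those alleles too. TVA is the avian receptor through which RCAS viruses enter mouse cells, and N:: is not explained in the labels. The normal brains are marked TVA neg, so by the labels they differ from the tumour-bearing mice in TVA status as well as in having no tumour. Whether PDGFA was also delivered to the IDH1 tumours is not stated in the labels, which name no age, sex, batch or pairing. They also do not say that each library is a separate animal, so p-values measure only the spread between these samples, which may be technical. Within a group the libraries are called 1, 2 and 3 by accession order, and these numbers only name them.

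Cells build the machinery of division shortly before they use it. The genes for mitotic cyclins, kinases, motors and chromosome proteins are silenced in resting cells by the DREAM complex and are switched on late in the cycle by the MuvB core together with B-MYB and FOXM1. MuvB reaches its targets through a short promoter element, the cell cycle genes homology region or CHR, which often lies near the transcription start, while the factor NF-Y binds CCAAT boxes upstream of it. Most neurons of the adult brain no longer divide, and dividing cells there are mainly glial precursors, which makes mitotic transcripts a common measure of proliferation in brain tumours.

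Promoter sequence is shown first because most of the promoters examined hold the same short elements. RefSeq windows of 250 bases before to 50 bases after the transcription start were available on GRCm38.p6 for 48 of the 56 genes, in 50 windows. The other genes, Tpx2, Smc4, Aurkb, Cdca2, Kif20a, Incenp, Ccna2 and Dlgap5, were not analysed here for promoter sequence. The letters searched were TTTGAA or TTCGAA for the CHR and CCAAT for the CCAAT box, on both strands, so that TTCAAA and ATTGG on the strand of the gene also count. A CHR match and a CCAAT match may share a base at their ends. The 100 bases directly before the start are printed for 7 genes, in the direction of the gene, and capitals mark CHR and CCAAT letters. Cdk1 (chr10:69352913-69353012, minus strand) and Cdc20 (chr4:118437344-118437443, minus strand) show the CHR as TTTGAA. Ube2c (chr2:164769829-164769928, plus strand), Top2a (chr11:99024190-99024289, minus strand), Kif11 (chr19:37376282-37376381, plus strand) and Ckap2l (chr2:129297213-129297312, minus strand) show it as TTCAAA. Ccnb1 (chr13:100786487-100786586, minus strand) has CCAAT boxes and no CHR letters in this stretch.
Cdk1: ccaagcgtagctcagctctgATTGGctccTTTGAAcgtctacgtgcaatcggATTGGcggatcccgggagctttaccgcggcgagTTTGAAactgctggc
Cdc20: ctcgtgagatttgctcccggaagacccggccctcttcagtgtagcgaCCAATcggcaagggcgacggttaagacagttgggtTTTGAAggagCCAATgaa
Ube2c: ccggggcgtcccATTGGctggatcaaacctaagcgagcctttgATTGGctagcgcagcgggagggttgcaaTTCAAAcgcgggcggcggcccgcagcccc
Top2a: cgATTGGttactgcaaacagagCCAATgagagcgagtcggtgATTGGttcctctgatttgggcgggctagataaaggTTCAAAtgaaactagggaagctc
Kif11: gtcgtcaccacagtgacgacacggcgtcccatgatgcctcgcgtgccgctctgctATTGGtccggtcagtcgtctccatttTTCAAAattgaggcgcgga
Ckap2l: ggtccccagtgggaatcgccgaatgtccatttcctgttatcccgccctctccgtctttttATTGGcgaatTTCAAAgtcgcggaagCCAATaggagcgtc
Ccnb1: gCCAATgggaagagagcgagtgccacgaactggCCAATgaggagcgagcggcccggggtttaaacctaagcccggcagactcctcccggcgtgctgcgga
In these stretches the base before the start is counted as -1. The CHR letters nearest to the start begin at -15 in Cdk1, -18 in Cdc20, -29 in Ube2c, -23 in Top2a, -19 in Kif11 and -30 in Ckap2l. CCAAT letters begin further upstream in each of these 6 promoters, at -80 and -48 in Cdk1 and at -98, -78 and -58 in Top2a, and Cdc20 and Ckap2l hold a further copy between the CHR and the start.

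CHR letters were present in 41 of the 50 windows (82.0%), against 19.2% of all 32851 RefSeq mouse windows of this length and 13.7% of the 15252 windows of genes tested for expression. CCAAT letters were present in 37 windows (74.0%), against 37.4% of all windows. Windows with both kinds of letters made up 68.0%, against 7.52% of all windows. CHR letters that began between -50 and 44 were present in 74.0% of the windows and in 5.23% of all windows. Of windows of 23 DNA replication genes 21.4% held CHR letters, and of 28 other kinetochore and checkpoint genes 43.8%. A match describes letters and does not show that a factor binds there. No test was made, since the genes were listed for their known role in division. The median log2 change for tumours against normal brain was 3.64 over the 39 genes with CHR letters and 2.99 over the 9 without, with overlapping ranges of -0.05 to 6.03 and 0.995 to 4.39. Split by CHR letters between -50 and 44 the medians were 3.55 over 35 genes with them and 3.31 over 13 without, and split by CCAAT letters 3.55 over 35 and 3.19 over 13.

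**Figure D1:**
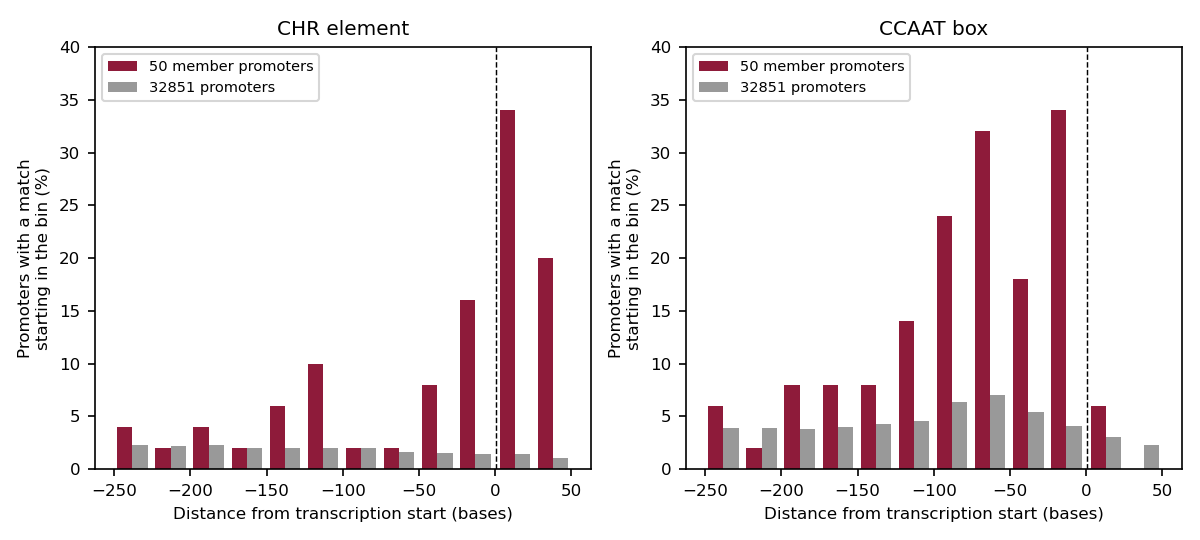
Share of promoters (%) in which CHR letters (left) or CCAAT letters (right) begin in each bin of 25 bases, by distance from the transcription start in bases; dark bars are the 50 windows of the mitotic genes and grey bars all 32851 windows. CHR letters peak just after the start, with 34.0% of the mitotic windows in the bin from 1 to 25 against 1.43% of all windows, and CCAAT letters peak before it.

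Total counts ran from 6507923 to 14277395 per library. Levels are CPM, a gene's count relative to the library's total after TMM scaling, and changes are log2 fold changes from edgeR's quasi-likelihood test fitted to 17812 genes, with p-values adjusted over all of them by Benjamini-Hochberg; a gene was called under 0.05. Loci that resemble ribosomal RNA took 46.2% of the count in IDH1_R132H tumour 3, against 2.95% to 19.5% elsewhere, and the TMM factor there was 0.506. Normal brains 1 and 2 resembled each other closely (chi-square per gene 2.43). Normal brain 3 differed more from both (26.96 and 26.1 per gene), and all 3 were kept as separate libraries. PDGFA tumour 1 stood apart from the other tumours. Its summed level of 15 oligodendrocyte precursor markers was 742 CPM, against 1665 to 8001 CPM in the other tumours and 715 to 735 CPM in the normal brains. The sum of 13 markers of myelinating oligodendrocytes was 11706 CPM there, against 2359 to 6746 CPM in the other tumours and 3605 to 3660 CPM in the normal brains. In whole tissue, fewer cells of a type and less RNA per cell cannot be told apart.

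The 9 tumours held far more mitotic transcript than the 3 normal brains. Summed over the 56 genes, the level was 618, 841 and 1113 CPM in the IDH1_R132H tumours, 539.9, 1616 and 1244 CPM in the IDH1WT tumours and 388, 613 and 2101 CPM in the PDGFA tumours, against 148, 167 and 138 CPM in the normal brains. Each tumour lay above each normal brain. For tumours against normal brain, with the 3 tumour groups weighted equally, edgeR called 48 of the 56 genes higher and 0 lower. Of all genes tested, 3.71% were called higher and 1.5% lower. The median log2 change over the 56 genes was 3.59, a 12.1-fold difference, against -0.01 over all genes tested. For 48 of the 56 genes all 9 tumours lay above all 3 normal brains, as for 4.67% of all genes tested.

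Without normal brain 1, 2 or 3, edgeR called 0 of the 56 genes each time, and the smallest adjusted p among them was 0.102, 0.0969 and 0.0825. It also called 0 when the alike normal brains 1 and 2 were summed to 1 library. Over all genes tested, the fits without normal brain 1, 2 or 3 called 0, 1 and 3, and none of these was a gene of any list used here. With all libraries, 54 genes had an unadjusted p under 0.05 and a higher level in tumours, as did 13.3% of all genes. In the 3 reduced fits edgeR had 52, 52 and 51 of the 56 genes at an unadjusted p under 0.05. Over all genes tested it had 2741, 2882 and 3221 at that limit, in either direction. The median log2 change over the 56 genes was 3.51, 3.75 and 3.37. All 56 genes passed the filter on low counts, but 34 of them fell short of the minimum in a normal brain and passed only with tumour libraries. That selection favours genes with a higher level in tumours, so their calls are no independent support. Among the 2236 genes that fell short of the minimum in a normal brain, 6.98% were called higher, and for 7.87% all 9 tumours lay above all 3 normal brains. The other 22 reached the minimum in all 3 normal brains, and of these 15 were called higher, with a median log2 change of 2.39, against 3.24% of the 15576 such genes. Counts in normal brain were small: 28 of the 56 genes had fewer than 30 reads over the 3 normal brains, and 6 had fewer than 10.

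**Figure D2:**
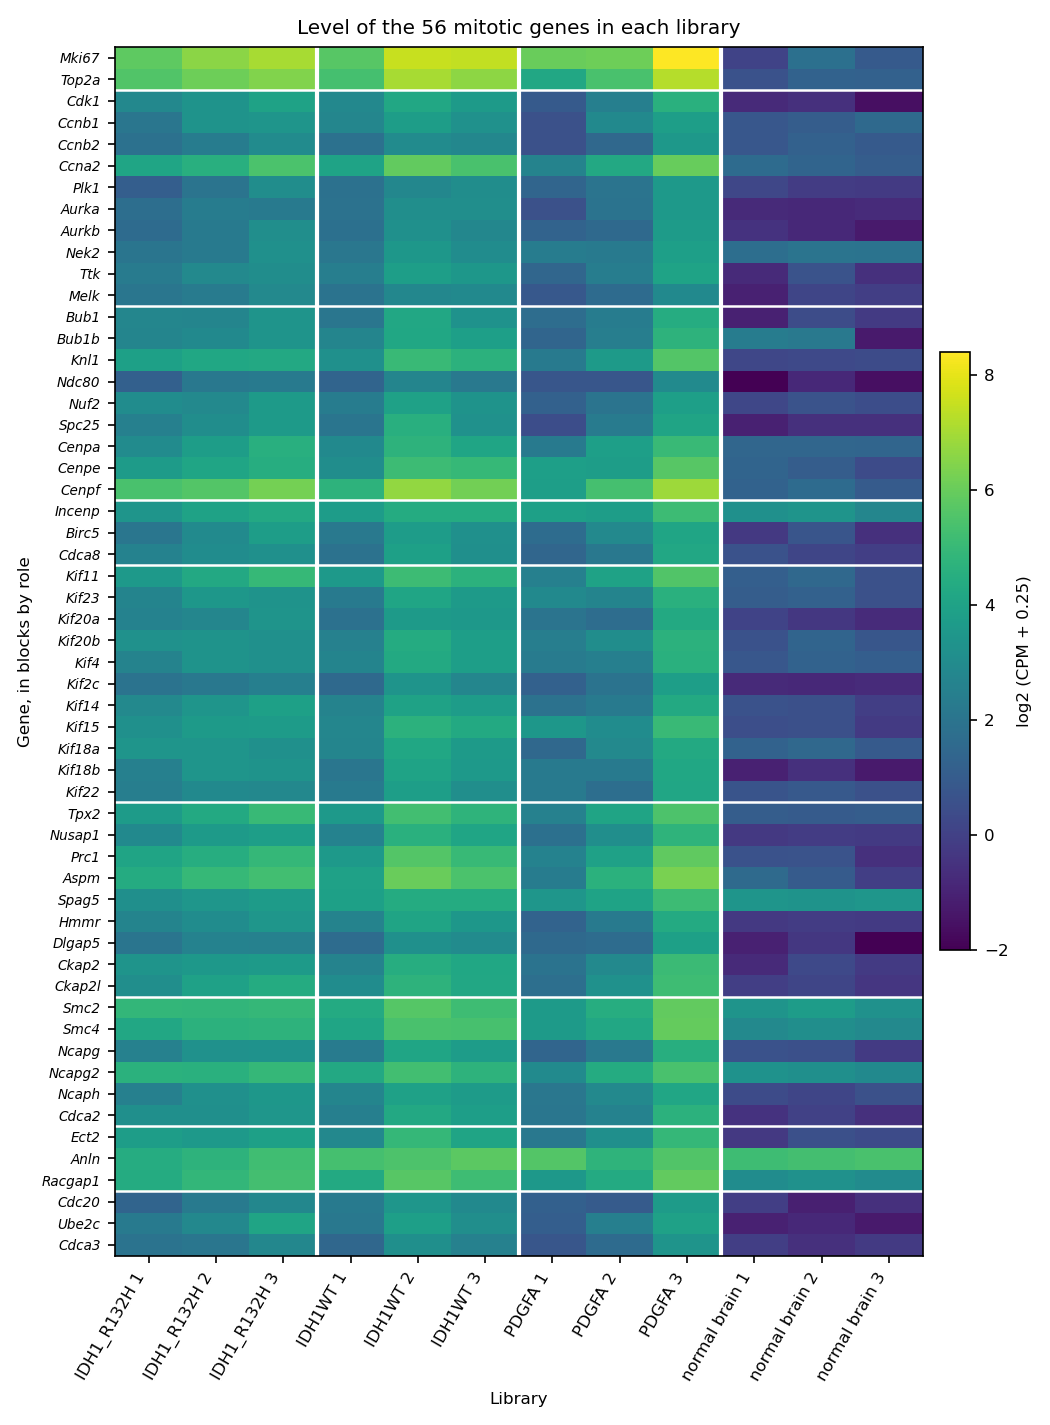
Level of each of the 56 genes (rows, in blocks by role) in each of the 12 libraries (columns), as log2 of CPM plus 0.25. The 9 tumour columns are lighter than the 3 normal brain columns for nearly every gene; Anln is similar in all columns, and PDGFA tumour 3 is lightest and PDGFA tumour 1 darkest among the tumours.

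Mki67 encodes the Ki-67 protein, which coats mitotic chromosomes and is stained in pathology to count dividing cells. It stood at 56.97, 95.04 and 131 CPM in the IDH1_R132H tumours, 51.8, 182 and 173 CPM in the IDH1WT tumours and 65.4, 67.9 and 338 CPM in the PDGFA tumours, against 0.808, 3.29 and 1.66 CPM in the normal brains. The lowest tumour was IDH1WT 1 and the highest PDGFA 3, and no tumour overlapped a normal brain. Its log2 change of 6.03 (SE 0.804, adjusted p = 0.0108) was the largest among the 56 genes in edgeR's test, and this is a difference of 65.2-fold. Top2a encodes topoisomerase II alpha, which untangles sister chromatids. It had 47.4, 69.5 and 85.7 CPM in the IDH1_R132H tumours, 40.4, 131 and 98.1 CPM in the IDH1WT tumours and 18.4, 41.9 and 152 CPM in the PDGFA tumours, against 1.27, 2.195 and 2.1005 CPM in the normal brains. The groups did not overlap, and PDGFA tumour 1 was the lowest tumour. Top2a rose by 5.32 (SE 0.74, adjusted p = 0.0108) on the log2 scale. Per kb of exon, the mean level in tumours was 12.8 CPM for Mki67 and 8.44 CPM for Top2a, against 0.191 and 0.206 CPM in normal brain.

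Cyclin-dependent kinase 1, encoded by Cdk1, drives entry into mitosis. It stood at 6.95, 9.87 and 15.6 CPM in the IDH1_R132H tumours, 7.02, 18.4 and 12.6 CPM in the IDH1WT tumours and 1.68, 5.31 and 24.02 CPM in the PDGFA tumours, against 0.346, 0.439 and 0.0875 CPM in the normal brains. Every tumour lay above every normal brain, and PDGFA tumour 1, at 1.68 CPM, lay nearest to them. The log2 change was 5.27 (SE 0.95, adjusted p = 0.0168). The normal brains held 8 Cdk1 reads in all, and the ratio of mean CPM was 38.7, with a 95% interval of 19.7 to 89.7 from the counting error of those reads alone. Such intervals cover counting error only, since the reads carry no molecular identifiers here.

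The cyclins that activate this kinase moved less evenly. Ccna2, cyclin A2, had 17.3, 23.3 and 43.2 CPM in the IDH1_R132H tumours, 16.04, 59.3 and 42.7 CPM in the IDH1WT tumours and 6.04, 19.1 and 63.4 CPM in the PDGFA tumours, against 2.89, 2.305 and 1.84 CPM in the normal brains, with no overlap and a log2 change of 3.77 (SE 0.73, adjusted p = 0.0192). Ccnb1, cyclin B1, had 3.95, 9.97 and 10.5 CPM in the IDH1_R132H tumours, 6.63, 13.4 and 9.32 CPM in the IDH1WT tumours and 1.23, 7.46 and 13.96 CPM in the PDGFA tumours, against 1.501, 1.87 and 2.71 CPM in the normal brains. Ccnb2, cyclin B2, had 3.41, 4.99 and 7.89 CPM in the IDH1_R132H tumours, 3.45, 7.805 and 6.87 CPM in the IDH1WT tumours and 1.23, 2.57 and 11.5 CPM in the PDGFA tumours, against 1.501, 2.09 and 1.66 CPM in the normal brains. In both cyclin B genes PDGFA tumour 1 lay below all 3 normal brains, and the other 8 tumours lay above them. Neither was called in edgeR's test (Ccnb1 2.03 (SE 0.59, adjusted p = 0.0623); Ccnb2 1.64 (SE 0.59, adjusted p = 0.12)). Each has a named pseudogene, Ccnb1-ps and Ccnb2-ps, whose reads the counting could split from it. Kif4 and Kif22, which were called, also have named pseudogenes, and the part of such copies was not tested. Without PDGFA tumour 1, edgeR called 52 of the 56 genes, and 2536 of all genes tested. With all libraries it called 48 of the 56, and over all genes 661 higher and 268 lower.

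Of the 10 genes of cyclins and mitotic kinases 7 were called higher, with a median log2 change of 3.26, beside 3.71% of all genes tested. Calls in this and the following groups by role include genes that passed the filter only with tumour libraries. Without normal brain 1, 2 or 3, edgeR called 0 of them. Plk1 encodes Polo-like kinase 1, which acts in centrosome maturation and exit from the G2 checkpoint. It had 1.91, 3.76 and 8.29 CPM in the IDH1_R132H tumours, 3.45, 6.71 and 8.37 CPM in the IDH1WT tumours and 2.35, 3.73 and 11.6 CPM in the PDGFA tumours, against 0.924, 0.659 and 0.613 CPM in the normal brains. Aurka encodes the Aurora A kinase of the spindle poles. It had 3.13, 4.88 and 4.54 CPM in the IDH1_R132H tumours, 3.51, 8.54 and 8.66 CPM in the IDH1WT tumours and 1.23, 3.65 and 11.9 CPM in the PDGFA tumours, against 0.346, 0.329 and 0.3501 CPM in the normal brains. Aurkb encodes Aurora B, the kinase of the chromosomal passenger complex. It had 2.86, 4.58 and 8.49 CPM in the IDH1_R132H tumours, 3.38, 9.02 and 6.87 CPM in the IDH1WT tumours and 2.24, 2.65 and 12.8 CPM in the PDGFA tumours, against 0.462, 0.329 and 0.175 CPM in the normal brains. The groups did not overlap for any of these 3 kinases, which rose by 2.896 (SE 0.64, adjusted p = 0.0282), 3.94 (SE 0.73, adjusted p = 0.0173) and 4.16 (SE 0.78, adjusted p = 0.0173) on the log2 scale in edgeR's test. Ttk, the checkpoint kinase MPS1, and Melk rose by 3.53 and 2.99. Nek2, a centrosome kinase, had 3.82, 4.58 and 9.08 CPM in the IDH1_R132H tumours, 4.11, 10.98 and 8.09 CPM in the IDH1WT tumours and 4.92, 4.56 and 14.2 CPM in the PDGFA tumours, against 3.12, 3.73 and 3.68 CPM in the normal brains. All 9 tumours lay above the normal brains for Nek2, but by little in 5 of them, and it was not called (0.995 (SE 0.43, adjusted p = 0.182)).

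Kinetochore and spindle checkpoint genes were called higher in 8 of 9 cases, with a median log2 change of 3.81, beside 3.71% of all genes tested. Cenpf, a large kinetochore protein that accumulates in G2, had 42.2, 48.6 and 74.2 CPM in the IDH1_R132H tumours, 26.3, 105 and 72.5 CPM in the IDH1WT tumours and 13.9, 40.4 and 119 CPM in the PDGFA tumours, against 2.19, 2.85 and 1.75 CPM in the normal brains. Its lowest tumour, PDGFA 1, was several-fold above the highest normal brain, and the log2 change was 4.73 (SE 0.72, adjusted p = 0.0125). Ndc80 encodes the subunit through which kinetochores grip microtubules. It had 2.04, 4.17 and 4.54 CPM in the IDH1_R132H tumours, 2.32, 6.34 and 4.42 CPM in the IDH1WT tumours and 1.45, 1.49 and 7.704 CPM in the PDGFA tumours, against 0, 0.329 and 0.0875 CPM in the normal brains. Over the 3 normal brains 4 Ndc80 reads were counted, and the ratio of mean CPM was 27.6, with a counting interval of 10.8 to 101 and a log2 change of 4.66 (SE 0.89, adjusted p = 0.0181) in edgeR's test. Its partners Nuf2 and Spc25 rose by 2.91 and 4.57, the scaffold Knl1 by 4.35, the centromeric histone Cenpa by 2.75, the motor Cenpe by 3.696 and the checkpoint kinase Bub1 by 3.81.

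Bub1b, which encodes the checkpoint protein BubR1, was the exception. It had 6.41, 7.33 and 10.3 CPM in the IDH1_R132H tumours, 6.49, 18.05 and 14.3 CPM in the IDH1WT tumours and 2.35, 5.22 and 26.6 CPM in the PDGFA tumours, against 4.85, 4.39 and 0.175 CPM in the normal brains. Normal brains 1 and 2 lay among the tumours and normal brain 3 far below them, with 42, 40 and 2 reads. The log2 change was 1.78 (SE 0.79, adjusted p = 0.196) in edgeR's test, and the SD over normal brains, 2.58 CPM, was close to their mean of 3.14 CPM.

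The chromosomal passenger complex corrects wrong attachments of chromosomes to the spindle. Birc5, which encodes survivin, had 3.95, 7.63 and 13.4 CPM in the IDH1_R132H tumours, 4.31, 13.3 and 9.13 CPM in the IDH1WT tumours and 2.91, 7.21 and 17.04 CPM in the PDGFA tumours, against 0.577, 1.43 and 0.438 CPM in the normal brains. It rose by 3.42 (SE 0.69, adjusted p = 0.0211) with no overlap, and Cdca8, borealin, rose by 3.15. Incenp, the scaffold of the complex, averaged 18.2 ± 7.04 CPM in the tumours and 8.62 ± 1.78 CPM in the normal brains (SD, n = 9 and n = 3). All 9 tumours were above the normal brains for Incenp, yet it was not called, at 1.07 (SE 0.31, adjusted p = 0.0638) in edgeR's test.

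All 11 kinesin motors were called higher, with a median log2 change of 3.31, beside 3.71% of all genes tested. Of these, Kif14, Kif15, Kif18b, Kif20a and Kif2c fell short of the count minimum in a normal brain and passed the filter only with tumour libraries. Kif11 encodes Eg5, which pushes the spindle poles apart. It had 12.1, 19.3 and 30.8 CPM in the IDH1_R132H tumours, 12.1, 35.2 and 25.4 CPM in the IDH1WT tumours and 5.59, 15.7 and 47.6 CPM in the PDGFA tumours, against 1.96, 2.63 and 1.23 CPM in the normal brains. The groups did not overlap, and the log2 change was 3.55 (SE 0.67, adjusted p = 0.0181). Kif18b, which shortens microtubules at their tips, changed most among the motors, by 5.03 (SE 0.76, adjusted p = 0.0125) in edgeR's test, from a base of 8 reads over the normal brains. The microtubule depolymerase Kif2c (4.005), Kif15 (3.93), the cytokinesis motor Kif20a (3.89), Kif14 (3.31), Kif20b (2.81), the midzone motor Kif23 (2.66), the chromokinesins Kif4 (2.51) and Kif22 (2.47), and Kif18a (2.31) followed. For Kif18a, PDGFA tumour 1 lay among the normal brains. Exons of Kif20a share 1271 bases with Cdc23 on the opposite strand, and those of Kif4 share 832 bases with Pdzd11. In all 14 of the 56 genes share exon bases with a gene on the other strand, and since the strand setting is not given in the sources used here, their reads cannot be told apart there.

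Of 9 other spindle genes 8 were called higher, with a median log2 change of 4.37, beside 3.71% of all genes tested. Tpx2, which activates Aurora A on the spindle, had 12.9, 19.4 and 32.2 CPM in the IDH1_R132H tumours, 12.3, 38.05 and 27.1 CPM in the IDH1WT tumours and 5.702, 16.8 and 44.9 CPM in the PDGFA tumours, against 1.85, 1.76 and 1.84 CPM in the normal brains. Prc1, which bundles microtubules of the central spindle, had 16.6, 22.4 and 30.4 CPM in the IDH1_R132H tumours, 11.7, 49.02 and 31.8 CPM in the IDH1WT tumours and 5.93, 15.2 and 57.6 CPM in the PDGFA tumours, against 1.27, 1.32 and 0.438 CPM in the normal brains. Aspm, a spindle pole protein whose loss causes small brains in humans, had 20.6, 30.8 and 37.7 CPM in the IDH1_R132H tumours, 15.3, 64.9 and 44.2 CPM in the IDH1WT tumours and 4.92, 25.04 and 78.03 CPM in the PDGFA tumours, against 2.77, 1.76 and 0.7002 CPM in the normal brains. None of these 3 genes had a tumour among the normal brains, and PDGFA tumour 1 was the lowest tumour for each. They rose by 3.66 (SE 0.65, adjusted p = 0.0164), 4.74 (SE 0.82, adjusted p = 0.0157) and 4.37 (SE 0.85, adjusted p = 0.0193) on the log2 scale in edgeR's test. Exons of Prc1 share 911 bases with Rccd1. Dlgap5 (4.58), Ckap2l (4.52), Nusap1 (4.39), Ckap2 (4.37) and Hmmr (3.92), all microtubule-associated spindle proteins, rose as well. Spag5, which encodes astrin, a protein that stabilises attachments at the kinetochore, did not follow them. It had 8.86, 10.7 and 12.8 CPM in the IDH1_R132H tumours, 14.8, 20.97 and 20.7 CPM in the IDH1WT tumours and 10.7, 15.9 and 34.6 CPM in the PDGFA tumours, against 10.6, 9.77 and 10.7 CPM in the normal brains. IDH1_R132H tumour 1 lay below the normal brains and the other tumours above or just above them, and the log2 change was 0.63 (SE 0.29, adjusted p = 0.218).

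Condensins fold chromosomes for division. Smc2, the core subunit shared by condensin I and II, had 29.03, 28.5 and 30.2 CPM in the IDH1_R132H tumours, 20.1, 50.2 and 35.9 CPM in the IDH1WT tumours and 12.6, 22.1 and 59.997 CPM in the PDGFA tumours, against 10.05, 13.4 and 9.28 CPM in the normal brains. The tumours apart from PDGFA 1 lay above the normal brains, and the log2 change of 1.55 (SE 0.42, adjusted p = 0.0511) missed the threshold in edgeR's test. Its partner Smc4 rose by 1.901 (SE 0.46, adjusted p = 0.036). The condensin I subunits Ncapg and Ncaph rose by 3.26 and 3.19, the condensin II subunit Ncapg2 by 1.58, and Cdca2, which recruits a phosphatase to chromatin, by 4.31. Per kb of exon, the mean level in normal brain was 1.99 CPM for Smc2, 1.49 CPM for Smc4 and 0.869 CPM for Ncapg2, and it was 0.146 CPM for Ncapg and 0.243 CPM for Ncaph. In the same fit, the condensin genes outside the list, Ncapd2 (0.86), Ncapd3 (0.06) and Ncaph2 (-0.20), were not called.

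In cytokinesis, Ect2, the exchange factor that switches on RhoA at the division plane, had 13.8, 12.01 and 14.6 CPM in the IDH1_R132H tumours, 6.96, 29.999 and 16.5 CPM in the IDH1WT tumours and 4.25, 8.79 and 29.8 CPM in the PDGFA tumours, against 0.577, 1.21 and 1.05 CPM in the normal brains. It rose by 3.96 (SE 0.699, adjusted p = 0.0164) in edgeR's test with no overlap, and Racgap1, the centralspindlin subunit that recruits Ect2, rose by 1.91 (SE 0.47, adjusted p = 0.0384). Anln encodes anillin, the scaffold of the contractile ring, and in mouse brain it is also made by myelinating oligodendrocytes. It had 21.3, 26.5 and 36.5 CPM in the IDH1_R132H tumours, 40.4, 44.998 and 54.7 CPM in the IDH1WT tumours and 49.4, 27.2 and 47.5 CPM in the PDGFA tumours, against 36.03, 38.7 and 42.5 CPM in the normal brains. The tumours lay on both sides of the normal brains. IDH1_R132H tumours 1 and 2 and PDGFA tumour 2 were below every normal brain, IDH1_R132H tumour 3 and IDH1WT tumour 1 were among them, and IDH1WT tumours 2 and 3 and PDGFA tumours 1 and 3 were above. The log2 change was -0.05 (SE 0.198, adjusted p = 0.907), the smallest of the 56. Per kb of exon Anln stood at 4.27 CPM in tumours and 4.31 CPM in normal brain. Of the 13 myelinating oligodendrocyte markers 1 was called higher, which is near the 3.71% of all genes called higher. The sum of these markers was 11706 CPM in PDGFA tumour 1 and 2359 to 6746 CPM in the other tumours. It was 3605 to 3660 CPM in the normal brains, and the part of these markers in the level of Anln was not tested.

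The 3 genes of the anaphase promoting complex and mitotic exit were called higher, beside 3.71% of all genes tested. All 3 passed the filter only with tumour libraries. Cdc20, the activator that starts anaphase, had 2.32, 4.58 and 6.71 CPM in the IDH1_R132H tumours, 4.57, 10.9 and 7.43 CPM in the IDH1WT tumours and 2.01, 1.74 and 12.7 CPM in the PDGFA tumours, against 0.693, 0.2195 and 0.438 CPM in the normal brains. Ube2c, the ubiquitin-conjugating enzyme that works with the complex, had 4.497, 6.92 and 16.8 CPM in the IDH1_R132H tumours, 4.17, 14.3 and 8.47 CPM in the IDH1WT tumours and 1.901, 5.39 and 15.2 CPM in the PDGFA tumours, against 0.231, 0.329 and 0.175 CPM in the normal brains. Neither had a tumour among the normal brains. They rose by 3.64 (SE 0.78, adjusted p = 0.0257) and 5.07 (SE 0.88, adjusted p = 0.016) on the log2 scale in edgeR's test, and Cdca3 rose by 3.08. Ube2c rests on 7 reads in normal brain, and its exons share 592 bases with Tnnc2.

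**Figure D3:**
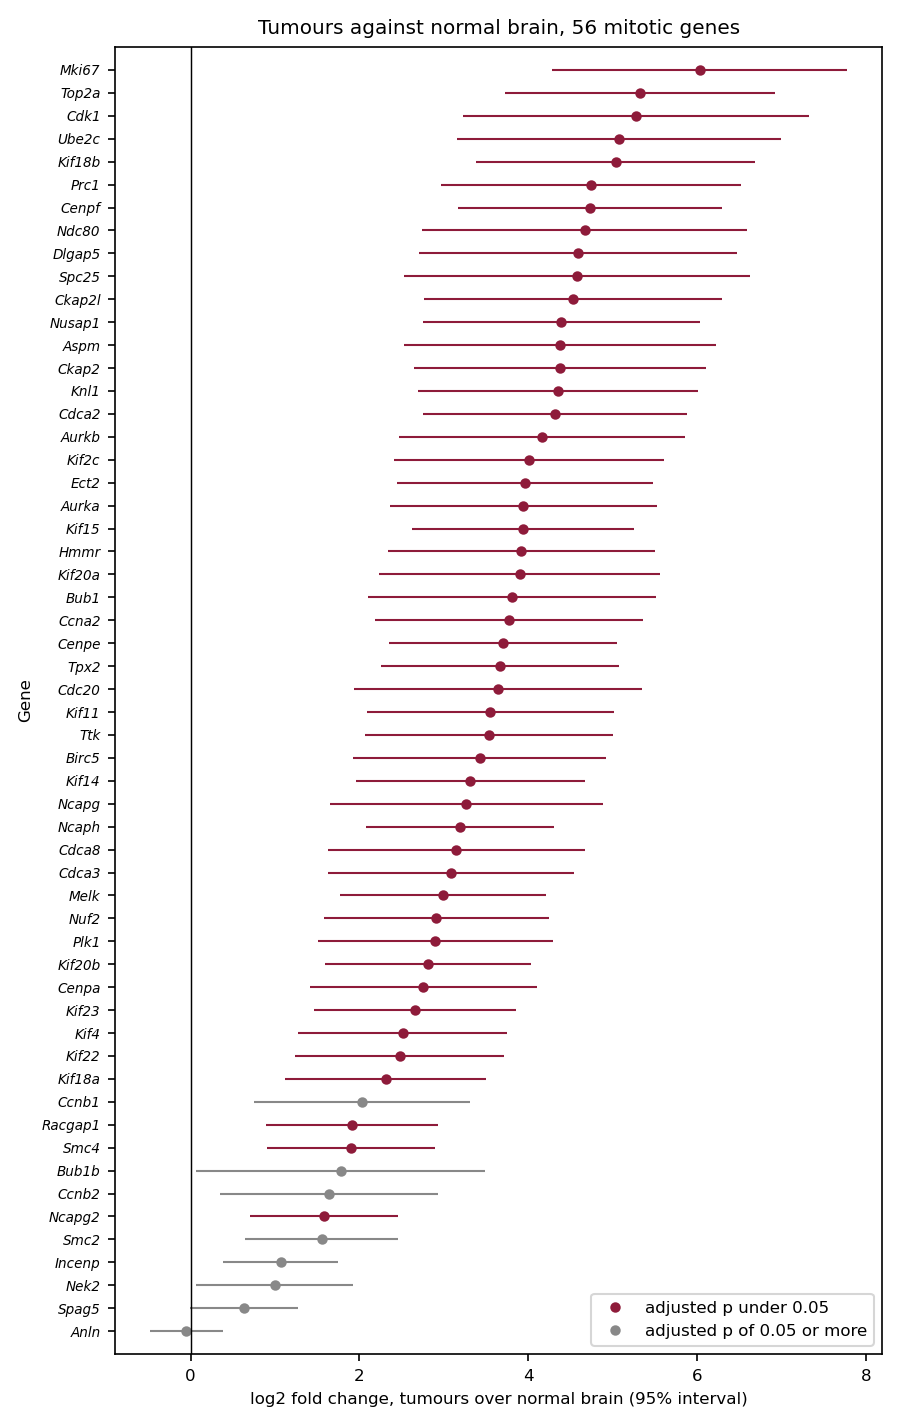
Log2 fold change of each of the 56 genes for tumours over normal brain, with its 95% interval from edgeR; filled colour marks genes called at an adjusted p under 0.05. The 8 genes in grey, from Ccnb1 at 2.03 down to Anln at -0.05, were not called.

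Other genes of division, in lists that hold none of the 56 genes, were called in part, beside the 3.71% of all genes tested that were called higher. Without normal brain 1, 2 or 3, edgeR called 0 genes of these lists. Of 33 other kinetochore and checkpoint genes 15 were called higher (median log2 change 1.48), among them Kntc1 (3.49) and Cenpi (3.19), which build the outer and inner kinetochore, and the astrin partner Knstrn (3.35). Of 22 G2/M entry genes tested 7 were called (median 0.67), among them the transcription factor Foxm1 (3.90, SE 0.66, edgeR adjusted p = 0.0157), the phosphatase Cdc25c (4.02) and the kinase Mastl (2.82). Of 15 cohesin and separase genes 5 were called (median 0.35), with the separase gene Espl1 (2.98), the sororin gene Cdca5 (4.25) and the acetyltransferase gene Esco2 (3.89) first by p. Of 13 centrosome and centriole genes 3 were called (median 0.80), Cep55 (3.40), Tacc3 (1.95) and Stil (2.22). Of 20 other mitotic and cytokinesis genes 15 were called (median 2.66), with Iqgap3 (3.59), the kinase Pbk (5.79) and Pimreg (4.06) first by p; Cep55 is in this list too.

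Of 17 genes of the anaphase promoting complex and its regulators 1 was called higher, the inhibitor Fbxo5 (1.75), and the median log2 change was 0.15. That share is near the 3.71% of all genes called higher. The core subunits Cdc16 (0.41, edgeR adjusted p = 0.0947) and Cdc27 (0.35, adjusted p = 0.0966) were not called. Of 30 DNA replication genes 17 were called (median 1.54), among them Uhrf1 (4.21), the helicase subunit Mcm6 (3.51) and the thymidine kinase Tk1 (3.70). No gene of these 7 lists or of the condensin genes outside the 56 was called lower. As with the 56 genes, some passed the filter only with tumour libraries, which favours genes with a higher level in tumours. They include Cdca5, Esco2, Pbk, Pimreg, Iqgap3, Foxm1, Cdc25c, Kntc1, Cenpi, Cep55, Fbxo5, Uhrf1 and Tk1. Of the genes that reached the minimum in all 3 normal brains, 5 of 19 were called in the kinetochore list, 3 of 17 in G2/M entry, 2 of 12 in cohesin, 2 of 12 in the centrosome list, 1 of 4 among other mitotic genes, 0 of 16 for the anaphase promoting complex and 11 of 22 in replication, against 3.24% of all such genes. The mean log2 CPM of the mitotic genes less that of the replication genes was 0.48 ± 0.36 in the tumours (SD, n = 9) and -0.89 ± 0.21 in the normal brains (SD, n = 3). Of the 56 mitotic genes 34 fell short of the count minimum in a normal brain, against 8 of the 30 replication genes. The lists thus differ in how many genes sit at few reads there, and this difference was not tested.

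**Figure D4:**
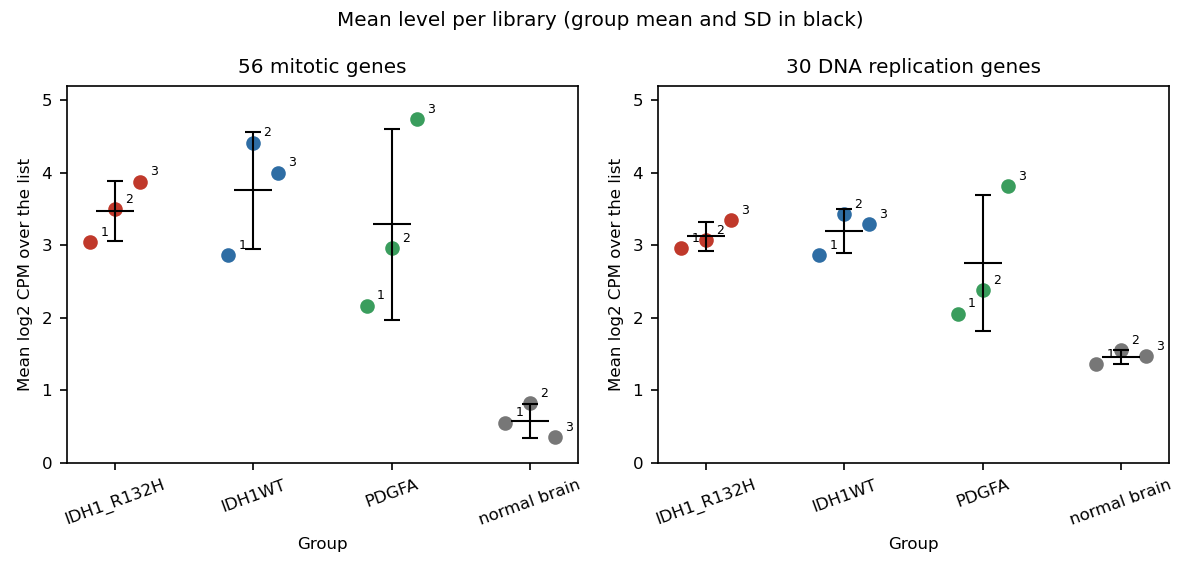
Mean log2 CPM over the 56 mitotic genes (left) and over 30 DNA replication genes (right) in each library, with numbered points for libraries and a black bar and whiskers for the group mean and SD (n = 3). In both panels the 9 tumours lie above the 3 normal brains, and PDGFA tumours 1 and 3 are the lowest and highest tumours.

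Each tumour group was also set against the same 3 normal brains, which the 3 comparisons therefore share. The counts in all 3 include the 34 genes that passed the filter only with tumour libraries. That selection favours a higher level in tumours, so the calls and the lack of overlap of those genes are no independent support. For IDH1_R132H against normal brain edgeR called 43 of the 56 genes higher, where 4.83% of all genes were called higher, and the median log2 change was 3.34. All 3 IDH1_R132H tumours lay above all 3 normal brains for 54 genes, as for 19.4% of all genes tested. The 43 calls became 0 without IDH1_R132H tumour 2 or without any 1 normal brain, and 27 without IDH1_R132H tumour 3. With 1 library left out, the count over all genes tested ran from 0 to 2303 for this comparison. For IDH1WT against normal brain 39 genes were called higher, where 1.57% of all genes were, with a median of 3.82. All 3 IDH1WT tumours lay above for 55 genes (17.4% of all genes). The 39 calls became 0 without IDH1WT tumour 2 or 3 or any 1 normal brain, and 25 without IDH1_R132H tumour 2. Here the count over all genes tested ran from 0 to 1090 with 1 library left out.

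For PDGFA against normal brain 11 genes were called higher, where 0.258% of all genes were, with a median log2 change of 3.58. Without PDGFA tumour 3 that median was 2.45, and without PDGFA tumour 1 it was 4.01. All 3 PDGFA tumours lay above the normal brains for 49 genes (8.23% of all genes). The count turned on libraries and settings. It was 52 without PDGFA tumour 1, 5 without PDGFA tumour 2 or 3, 2 without IDH1_R132H tumour 3, and 0 without IDH1_R132H tumour 1 or 2, IDH1WT tumour 3 or any 1 normal brain. The count over all genes tested moved too, from 0 to 828 with 1 library left out. DESeq2 called 49, where it called 417 of its 19409 genes tested higher, and limma voom with quality weights called 37. For voom the count over all genes is not given here. At an unadjusted p under 0.05, edgeR had 54 of the 56 genes higher in PDGFA tumours, 52 in IDH1_R132H tumours and 55 in IDH1WT tumours, where 7.35%, 14.2% and 11.6% of all genes were higher at that limit. For Mki67 the log2 change was 5.61 (SE 0.83, adjusted p = 0.0124) for IDH1_R132H, 6.13 (SE 0.84, adjusted p = 0.0221) for IDH1WT and 6.34 (SE 0.85, adjusted p = 0.043) for PDGFA in edgeR's test.

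In edgeR's test no mitotic gene was called between tumour groups, where 0% of all genes were called in each of the 3 comparisons. For IDH1_R132H against IDH1WT the median log2 change was -0.40, and 55 of the 56 genes had a negative value. Without IDH1WT tumour 2 the median was 0.003, without IDH1_R132H tumour 1 it was -0.21 and without IDH1WT tumour 1 it was -0.72. The typical 95% interval ran from -1.69 to 0.94, wide enough to hold a 2-fold decrease for all 56 genes and a 2-fold increase for 24. At an unadjusted p under 0.05 edgeR had 2 genes (2.67% of all genes). DESeq2 called 0 of the 56 genes and 0 of its 42482 genes tested. For IDH1_R132H against PDGFA the median was -0.20, with 46 negative values, 2 genes at an unadjusted p under 0.05 (10.9% of all genes) and a typical interval of -1.54 to 1.15. For IDH1WT against PDGFA the median was 0.19, with 45 positive values, 0 genes at an unadjusted p under 0.05 (5.83% of all genes) and a typical interval of -1.09 to 1.44. DESeq2 called 0 of the 56 genes in these comparisons as well. Of its 15292 genes tested, DESeq2 called 58 higher and 68 lower for IDH1_R132H against PDGFA. For IDH1WT against PDGFA it called 7 higher and 3 lower of 15292. The median log2 changes between tumour groups moved with single libraries. For IDH1_R132H against PDGFA the median was 0.92 without PDGFA tumour 3, -0.63 without PDGFA tumour 1 and -0.001 without IDH1_R132H tumour 1. For IDH1WT against PDGFA it was 1.34 without PDGFA tumour 3, and it was negative without PDGFA tumour 1 (-0.25), PDGFA tumour 2 (-0.12) or IDH1WT tumour 2 (-0.21).

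The 2 genes with an unadjusted p under 0.05 were the same in both IDH1_R132H comparisons, Spag5 and Anln, which were also the genes that differed least between tumours and normal brain. For Spag5 the log2 change was -0.805 (SE 0.35, adjusted p = 1) against IDH1WT and -0.93 (SE 0.35, adjusted p = 0.396) against PDGFA in edgeR's test. For Anln it was -0.74 (SE 0.25, adjusted p = 1) and -0.56 (SE 0.25, adjusted p = 0.438). All 3 IDH1_R132H tumours lay below all 3 IDH1WT tumours for these 2 genes alone of the 56, and 3.79% of all genes did so. The share of the 56 genes is thus near that of all genes. At an unadjusted p under 0.05, 2 of 56 is also near the share of all genes against IDH1WT (2.67%). It is below that share against PDGFA (10.9%). These counts therefore do not set the mitotic genes apart from all genes tested. With no filter on low counts, Spag5 was called lower in IDH1_R132H than in PDGFA, with an edgeR adjusted p of 0.0335, and it was the 1 mitotic gene called. The count over all genes in that unfiltered fit is not given here, so this call is not set apart from calls over all genes.

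Cdk1, Ccna2 and Mki67 give examples of the width of these intervals. Against IDH1WT, the log2 change in IDH1_R132H tumours was -0.23 for Cdk1, with a 95% interval of -1.74 to 1.27, and -0.498 for Ccna2, with an interval of -1.93 to 0.94. Against PDGFA, Mki67 was at -0.74 in IDH1_R132H tumours, with an interval of -2.12 to 0.64. A p that misses the threshold does not show that the groups are alike.

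Within groups the tumours differed, least in the IDH1_R132H group and most in the PDGFA group. Relative to the normal brain mean, the median gene was 6.06, 8.56 and 11.1-fold higher in IDH1_R132H tumours 1 to 3, 5.28, 17.0 and 12.4-fold in IDH1WT tumours 1 to 3, and 2.97, 5.69 and 21.4-fold in PDGFA tumours 1 to 3. PDGFA tumour 3 was the highest tumour for 50 of the 56 genes, and PDGFA tumour 1 the lowest for 43. The highest and the lowest tumour thus carry the same label, 7.19-fold apart by these medians. The median coefficient of variation of a gene's CPM was 29.3% in the IDH1_R132H group, 50.5% in IDH1WT, 96.5% in PDGFA and 28.5% in normal brain. The mean log2 CPM over the 56 genes was 3.47 ± 0.42 in the IDH1_R132H tumours, 3.76 ± 0.81 in the IDH1WT tumours, 3.29 ± 1.32 in the PDGFA tumours and 0.57 ± 0.23 in the normal brains (SD, n = 3 each).

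The mitotic genes went up and down together from tumour to tumour. As a description, the correlation of a gene's log2 CPM with the mean of the other 55 over the 9 tumours had a median of 0.958, and it was above 0.9 for 46 genes. Racgap1 had the highest value, 0.994, and Anln the lowest, 0.295, followed by Spag5 at 0.747 and Incenp at 0.822. Without PDGFA tumour 1 the median was 0.968, with 48 genes above 0.9 and 0.668 for Anln as the lowest. These points share each library's depth and scaling, and the genes were listed because they work in the same process. Genes outside every list also followed the mitotic mean, with 0.988 for Lmnb1 and 0.963 for Atad2 among the 10 closest of 12798. The share of all genes above 0.9 is not given here.

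PDGFA tumour 1 was low in a different pattern from the others. The deviation of each gene from its mean over tumours, after the tumour's own mean was taken off, had an SD over genes of 0.60 on the log2 scale in PDGFA tumour 1, against 0.15 to 0.31 in the other 8 tumours. Furthest below that tumour's mean were the kinetochore gene Spc25 (-1.14), Aspm (-1.12), Ccnb1 (-1.02) and Cdk1 (-0.96), with 10, 44, 11 and 15 reads there. The part of such few reads in the spread was not tested. Furthest above were Anln (1.75), Incenp (1.14), Kif15 (1.07), Kif23 (0.97), Nek2 (0.97) and Cenpe (0.88). Because the tumour's own mean is taken off, genes that change little between tumours stand above it in a low tumour by construction. Mki67 was at 0.64, and the ratio of Mki67 to Top2a reads was 3.55 in that tumour, against 1.201 to 2.22 in the other tumours. In this tumour 6 genes, Ccnb1, Ccnb2, Bub1b, Kif18a, Smc2 and Ncapg2, were not above all normal brains.

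**Figure D5:**
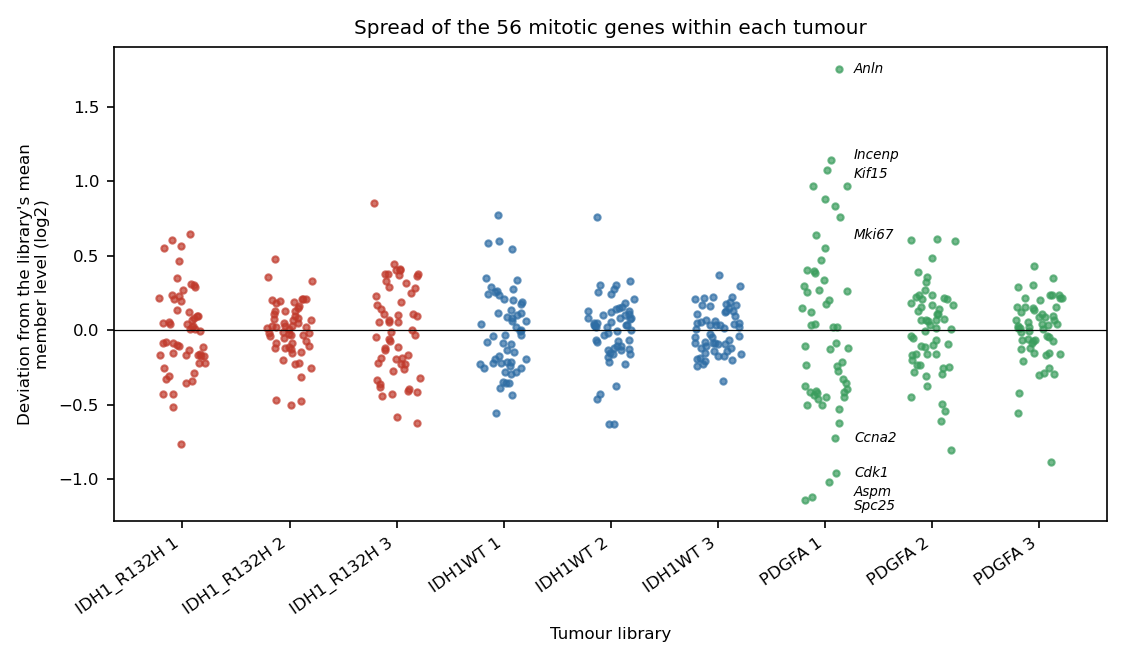
Deviation of each of the 56 genes from its mean over the 9 tumours after each tumour's mean level was taken off (log2), by tumour library; points are genes, spread sideways to be seen. PDGFA tumour 1 has the widest spread, from -1.14 for Spc25 to 1.75 for Anln.

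Markers of the cell types that brain tissue holds were set beside these values, with 3.71% of all genes called higher. At an unadjusted p under 0.05, in either direction, edgeR had 4199 of all 17812 genes. The share of neuron markers at that limit lies below this. Of 15 oligodendrocyte precursor markers 12 were called higher in tumours (median log2 change 2.86), and their summed level was 742 to 8001 CPM in the tumours and 715 to 735 CPM in the normal brains. Of 20 neuron markers edgeR called 0, with 2 at an unadjusted p under 0.05 (median -0.40), with sums of 5039 to 12163 CPM in tumours and 10112 to 10887 CPM in normal brain. Of 14 astrocyte markers 1 was called higher (median -0.15), with sums of 1260 CPM in PDGFA tumour 1 and 4349 to 7512 CPM in the other 8 tumours, against 6048 to 6126 CPM in normal brain, and 1 of 14 is near the share over all genes. Of 20 microglia and macrophage markers 0 were called, with 8 at an unadjusted p under 0.05 (median 0.97), with 56.9 CPM in PDGFA tumour 1 and 309 to 626 CPM in the other 8 tumours, against 172 to 295 CPM in normal brain. Those 8 tumours lay above every normal brain. Of 15 endothelial markers 6 were called higher (median 0.69), with 343 to 542 CPM against 276 to 315 CPM. Of 10 T cell markers 3 passed the filter and 0 were called, with sums of 4.70 to 23.3 CPM against 4.73 to 9.47 CPM. Every marker in these lists had reads in both tumours and normal brains. The part of any of these cell types in the mitotic level was not tested.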

How the data were processed

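Per the labels' protocols, total RNA for the 12 libraries was extracted from formalin-fixed, paraffin-embedded mouse brain (RecoverAll). Every test used the deposited counts, whole numbers of reads for each of 49671 Ensembl identifiers. Per the submitters' processing notes, the authors' tools included DESeq2 1.16.1, featureCounts 1.5.1, Subread and STAR 2.5.2b, and the build was GRCm38. Not given in the sources used here are their annotation, their strand setting and how multi-mapping reads were handled. A second table deposited by the authors holds log2 values, regularized log values by its name, and served as an alternative only. No floxed exon was counted separately.

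GENCODE M21 named 49412 of the identifiers, and all 56 members matched. Counts were analysed in R 4.3.3 with edgeR 4.0.16: filterByExpr with a minimum count of 10 and total of 15 (a cutoff of 1.01 CPM) left 17812 genes, libraries were scaled by TMM, and a robust quasi-likelihood model with a coefficient for each group was fitted to all 12 libraries, with 8 residual degrees of freedom. TMM sets the typical gene to no change. It gave 7 comparisons, adjusted over all genes tested by Benjamini-Hochberg and called under 0.05. Biological variation had a common coefficient of 26.5%, and the median SE of a mitotic gene's log2 change for tumours against normal brain was 0.69, which sets what could be called. Mean levels are log2 CPM with a prior count of 2. The procedure was tested on simulated counts.

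Every member may be named by its role, and values in every library were given for 21 members chosen by role, the 3 with the largest and the 3 with the smallest change (24 genes in all). Incenp is given as a mean. Of each other list the 3 genes with the smallest p were named. Members, lists and rules were chosen with earlier results of these data known. Promoters are RefSeq windows on GRCm38.p6, read with Python 3.11.15. Alternatives were RLE size factors, DESeq2 1.42.0, no filter, limma 3.58.1 on the deposited log2 values, voom with quality weights, ribosomal-RNA-like loci left out, a prior count of 0.5, normal brains 1 and 2 summed, only the groups compared, IDH1_R132H tumour 3 and PDGFA tumour 1 left out together, and each library left out in turn. A fit to the 9 tumours was added after seeing the data. All 12 columns matched a sample by name.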

Additional observations from a re-analysis of the deposited data

Results flagged for a closer look

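Among the 9 tumours, the spread of the 56 genes within PDGFA tumour 1 stood apart, with an SD over genes of 0.60 on the log2 scale against 0.15 to 0.31 in the other tumours. The gap to the next tumour was 0.649 of the whole range, above Dixon's critical value of 0.493 for 9 values. It was the 1 value past that limit among 27 examined, where chance gives about 1 in 20. That tumour also had the fewest reads over the 56 genes, 3468 against 4538 to 23185 in the other tumours. Their part in the spread was not tested.

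For Anln all 3 IDH1_R132H tumours lay below the normal brain mean of 39.1 CPM and all 3 IDH1WT tumours above it. Anln was among the 2 of the 56 genes with all 3 IDH1_R132H tumours below all 3 IDH1WT tumours. That share is near the 3.79% of all genes that did so. IDH1_R132H tumour 3 and IDH1WT tumour 1 lay within the range of the normal brains, and neither group was called against normal brain: the 95% intervals of the log2 change were -1.02 to 0.05 for IDH1_R132H and -0.27 to 0.78 for IDH1WT. The log2 change of IDH1_R132H against IDH1WT was -0.74 (SE 0.25, edgeR unadjusted p = 0.0106, adjusted p = 1), so the difference did not pass the correction.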

How the results depend on the processing

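For tumours against normal brain the count of 48 of 56 genes called stayed within 1.5 times under every alternative that keeps 3 separate normal brains. It was 0 with normal brains 1 and 2 summed and 0 to 52 when 1 library was left out, the 0 coming without each normal brain; fewer libraries are then fitted, and beyond that the cause was not tested. For IDH1_R132H against normal brain it was 0 with the normal brains summed and 0 to 51 with 1 library left out. For IDH1WT against normal brain it was 10 with limma on the deposited log2 values, 0 with the normal brains summed and 0 to 53 with 1 library left out. For PDGFA against normal brain, with 11 genes called, it was 17 with RLE size factors, 17 with ribosomal-RNA-like loci left out, 49 with DESeq2, 55 with no filter, 37 with voom, 52 without IDH1_R132H tumour 3 and PDGFA tumour 1 together, 0 with limma on the deposited log2 values, 0 with the normal brains summed and 0 with only the groups compared. It was 0 to 52 with 1 library left out. Apart from DESeq2, counts over all genes are not given here for the alternatives that keep all libraries. A rise in calls among the 56 genes under them is therefore not set apart from a rise over all genes. Over all genes tested, the fits without 1 library called 0 to 2536 for tumours and 0 to 2303 for IDH1_R132H. For IDH1WT they called 0 to 1090 and for PDGFA 0 to 828. Between tumour groups the count was 0 in every run, the fit to the 9 tumours added after seeing the data included, except 1 (Spag5) for IDH1_R132H against PDGFA with no filter.

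The median log2 change kept its direction against normal brain in every run. On the deposited log2 values it was 1.25 for all tumours, 1.201 for IDH1_R132H, 1.36 for IDH1WT and 1.18 for PDGFA; that scale shrinks genes with few reads. With 1 library left out the ranges were 3.17 to 3.75, 3.07 to 3.62, 3.39 to 4.13 and 2.45 to 4.01 in the same order. Between tumour groups they were -0.72 to 0.003 for IDH1_R132H against IDH1WT, -0.63 to 0.92 for IDH1_R132H against PDGFA and -0.25 to 1.34 for IDH1WT against PDGFA. With a prior count of 0.5 the mean level was 0.285 in normal brain 1 and 0.0379 in normal brain 3, against 0.553 and 0.351 with the prior count of 2. Over 24 named genes and 20 alternatives, 386 of the log2 changes for tumours against normal brain kept their direction and side of the threshold, 68 lost the call, 23 gained it and 3 changed sign. Those 3 were Anln, at 0.0051, 0.022 and 0.013 without IDH1_R132H tumour 1, PDGFA tumour 2 or normal brain 3, within a range of -0.139 to 0.022 when 1 library was left out. No paired analysis was possible because the labels give no replicate numbers that link libraries of different groups. Few reads limit precision in the normal brains, where 26 of the 56 genes averaged under 1 CPM.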

Other observations

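Among 12798 tested genes outside every list, with a mean log2 CPM of at least 2, the 10 whose log2 CPM followed the mean of the mitotic genes most closely over the 9 tumours were Lmnb1, Arpc1b, Map3k20, Brca2, Rcc1, Gas2l3, Rell1, Pdia4, Creld2 and Atad2. Their Pearson correlations ran from 0.988 for Lmnb1 to 0.963 for Atad2, and from 0.995 to 0.955 without PDGFA tumour 1; the points share each library's depth and scaling. Lmnb1, which encodes lamin B1 of the nuclear envelope, averaged 28.1 ± 12.7 CPM in the tumours and 6.16 ± 0.336 CPM in the normal brains (SD, n = 9 and n = 3), a log2 change of 2.19 (SE 0.42, edgeR adjusted p = 0.0181). Arpc1b, a subunit of the actin-nucleating Arp2/3 complex, averaged 28.6 ± 10.8 CPM in the tumours and 7.08 ± 2.27 CPM in the normal brains (log2 change 2.01, SE 0.39, edgeR adjusted p = 0.0185). The other 8 were not called for tumours against normal brain. Brca2, the recombination gene, had a log2 change of 0.78 (edgeR adjusted p = 0.106), and Atad2, a chromatin ATPase, 0.98 (edgeR adjusted p = 0.0538). Like the mitotic genes, Lmnb1 and Arpc1b were called from 3 normal brains only.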
